A study of Rattus norvegicus with 10 samples.

Results

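Alas2, Hbb, Ahsp and Slc4a1 are genes of the red blood cell lineage, and they were examined in white adipose tissue of male rats. The members are these 4 symbols, and every probe set annotated to 1 of them alone was taken, which gave 5 probe sets of the 31042 tested, for 4 of 14217 genes. Alas2, Hbb and Ahsp have 1 probe set each and Slc4a1 has 2. Microarray values came from 10 animals aged 13 weeks, 1 array each. The 5 noodle animals (numbers 1, 4, 7, 10 and 13) were fed instant noodle as 30% of the diet's weight, seasonings included, and fat gave 26% of that diet's energy. The 5 control animals (numbers 2, 5, 8, 11 and 14) ate that diet with the seasonings left out, as the series text puts it. Animals were pair-fed for 30 days (4 weeks in another label) at about 60 g per kg each day, and the labels do not give the strain, the fat depot, any perfusion, or which animals were paired.

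Mammalian red cells carry oxygen on haemoglobin, a tetramer of alpha and beta globin chains that each hold a haem group. Developing red cells make very large amounts of globin mRNA, and the youngest circulating cells, the reticulocytes, still carry it after the nucleus is lost. Fat tissue is crossed by a dense capillary bed, so blood held in a sample brings such mRNA with it. Adipocytes themselves make haem through a different first enzyme, that of Alas1.

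The deposited value of each probe set was taken as log2. Of all tested probe sets, 91.6% had an SD of 0.01 or less over the 10 arrays, and these are called flat below. The other 8.40%, or 2607 probe sets, are called variable. The reason for this flatness is not given in the sources used here, so the size of a difference was not compared between single probe sets. Of the 5 probe sets of the members, 4 were variable and 1, for Slc4a1, was flat. Array medians lay between 6.17 and 6.18, and arrays correlated with each other at 0.993 to 0.998. The extraction text in the labels names a brain sample. Of the adipocyte markers 12 of 19 measured genes had a variable probe set, and of the brain markers 2 of 18. The median level was 11.8 for the 19 measured adipocyte markers, 5.72 for the 18 measured brain markers and 6.76 for all measured genes. The adipocyte markers thus stood above the median of all genes and the brain markers below it. Levels of different probe sets are not strictly comparable, and the tissue of origin was not tested.

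The beta and alpha globin genes lie in clusters of related copies, and the regions before their start sites are shown so that the copies read by the globin probe sets can be compared. These windows lie outside the transcripts and say nothing of what a probe matches. RefSeq windows on the GRCr8 assembly matched 2 of the 4 members, Hbb and Alas2, and not Ahsp or Slc4a1. That of Alas2 lies inside the annotated gene and was not used. The 250 bases before the start site are given below, 5′ to 3′, for Hbb and for 3 alpha globin genes. Capitals mark matches on either strand to CACCC (a box bound by the red cell factor Klf1), CCAAT (a common promoter box), ATAAA (part of a TATA box) and GATAA (a core that Gata1 binds).
Hbb, chr1:167663722-167663971, minus strand: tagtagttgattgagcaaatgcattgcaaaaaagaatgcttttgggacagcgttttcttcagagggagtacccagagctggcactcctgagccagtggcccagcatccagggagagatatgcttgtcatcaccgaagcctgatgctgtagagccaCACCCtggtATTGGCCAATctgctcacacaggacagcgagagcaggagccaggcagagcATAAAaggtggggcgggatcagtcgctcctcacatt
Hba-a3, chr10:15816944-15817193, minus strand: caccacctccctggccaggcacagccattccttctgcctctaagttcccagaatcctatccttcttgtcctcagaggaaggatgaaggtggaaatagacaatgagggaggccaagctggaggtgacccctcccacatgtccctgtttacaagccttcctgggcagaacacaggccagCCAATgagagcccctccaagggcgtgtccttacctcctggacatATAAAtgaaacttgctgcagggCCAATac
Hba-a1, chr10:15842581-15842830, minus strand: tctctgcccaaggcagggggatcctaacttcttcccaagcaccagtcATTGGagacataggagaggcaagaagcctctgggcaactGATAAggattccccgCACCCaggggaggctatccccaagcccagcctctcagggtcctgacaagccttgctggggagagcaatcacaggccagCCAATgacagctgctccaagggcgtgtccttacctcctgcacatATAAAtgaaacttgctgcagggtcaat
Hba-a2, chr10:15829139-15829388, minus strand: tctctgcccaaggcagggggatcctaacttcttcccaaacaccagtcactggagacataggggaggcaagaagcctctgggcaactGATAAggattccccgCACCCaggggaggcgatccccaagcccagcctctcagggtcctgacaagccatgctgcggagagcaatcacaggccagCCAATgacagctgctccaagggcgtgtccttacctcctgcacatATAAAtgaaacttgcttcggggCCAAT

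The Hba-a1 and Hba-a2 windows were identical at 96.4% of aligned positions, and Hba-a3 matched them at 62.4% and 63.1%. The windows of Hbb-bs and Hbbl1, genes of the beta cluster next to Hbb, were 93.3% identical to each other, while Hbb matched them at 59.1% and 58.8%. The Hbb window held CACCC together with CCAAT and ATAAA, as did those of Hba-a1, Hba-a2, Hbb-bs and Hbbl1 but not that of Hba-a3, which lacked CACCC. This combination was found in 5.50% of the 33469 RefSeq windows. In the Hbb window the CCAAT match on 1 strand directly adjoins that on the other, with no base shared. Taken alone, CACCC occurred in 49.2% of windows, CCAAT in 34.0%, ATAAA in 39.3% and GATAA in 23.5%. GATAA was found in the Hba-a1 and Hba-a2 windows and not in those of Hbb and Hba-a3. These matches describe letters only.

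All 4 variable probe sets of the members had a lower mean in the noodle group, and none passed the threshold over all probe sets. A difference below 0 was found in 55.4% of all variable probe sets. With limma, the adjusted p was 0.993 for each of the members, and the share of all 31042 probe sets that passed at an adjusted p of 0.05 was 0%. At an unadjusted p under 0.05 the noodle group was lower in 2 of the 4 variable probe sets of the members, Alas2 and Slc4a1. The same held for 5.33% of the variable probe sets and 2.29% of all probe sets. In bulk tissue, fewer red cells and less of these mRNAs per red cell cannot be told apart, and the blood content of the samples was not measured.

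Alas2 encodes the red cell form of the enzyme that starts haem synthesis. Its values were 8.74, 8.16, 8.77, 8.72 and 8.68 in noodle animals 1, 4, 7, 10 and 13, against 8.97, 9.40, 9.44, 8.51 and 9.46 in control animals 2, 5, 8, 11 and 14. Controls 2, 5, 8 and 14 lay above every noodle animal, while control 11 lay below all noodle animals except number 4. Noodle animals averaged 8.61 ± 0.25 and control animals 9.15 ± 0.41 (SD, n = 5 each), a difference of -0.54 ± 0.21 (SE) or 1.45-fold on the deposited scale. The unadjusted p in limma was 0.0313, and a two-sided exact permutation test over all assignments of the 10 animals to the diets gave p = 0.0556, where 0.00794 is the smallest it can give. Without noodle animal 4 the difference was -0.43, and without control animal 11 it was -0.70. The unadjusted p lay between 0.0699 and 0.0720 when noodle animal 4 or control animal 5, 8 or 14 was left out.

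Hbb encodes a beta globin chain. It is read by a probe set of the _x_at kind, in which some probes may match other transcripts, so signal from other beta globin genes cannot be separated here. Values were 13.28, 12.89, 13.20, 13.24 and 13.21 in noodle animals 1, 4, 7, 10 and 13, against 13.28, 13.37, 13.47, 13.22 and 13.27 in control animals 2, 5, 8, 11 and 14. The groups overlapped, with 3 noodle animals below every control and 2 controls above every noodle animal. Noodle animals averaged 13.16 ± 0.16 and control animals 13.32 ± 0.10 (SD, n = 5 each), and the difference was -0.16 ± 0.08 (SE; exact permutation p = 0.0635). The difference was -0.0873 without noodle animal 4.

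Ahsp encodes the chaperone that holds free alpha globin until it pairs with beta globin. Its values were 6.35, 6.05, 6.26, 6.12 and 6.23 in noodle animals 1, 4, 7, 10 and 13, against 6.31, 6.49, 6.54, 6.06 and 6.67 in control animals 2, 5, 8, 11 and 14. Controls 5, 8 and 14 were above all noodle animals, and control 11 was again near the lowest value. Noodle animals averaged 6.20 ± 0.12 and control animals 6.41 ± 0.24 (SD, n = 5 each), with a difference of -0.21 ± 0.11 (SE; exact permutation p = 0.119). This difference was -0.149 without control animal 14 and -0.30 without control animal 11.

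Slc4a1 encodes band 3, the anion exchanger of the red cell membrane, and had the smallest p among the members. Its variable probe set read 6.53, 6.15, 6.28, 6.21 and 6.24 in noodle animals 1, 4, 7, 10 and 13, against 6.65, 6.83, 6.79, 6.31 and 6.83 in control animals 2, 5, 8, 11 and 14. Here 4 of 5 noodle animals lay below every control, and 4 of 5 controls lay above every noodle animal. The overlap came from noodle animal 1 and control animal 11. Noodle animals averaged 6.28 ± 0.15 and control animals 6.68 ± 0.22 (SD, n = 5 each), a difference of -0.40 ± 0.11 (SE) or 1.32-fold, with an unadjusted limma p of 0.00750 and an exact permutation p of 0.0159. Leaving out single animals gave differences from -0.489 to -0.359.

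The other Slc4a1 probe set was flat, with values between 6.5186 and 6.5194 and a difference of -0.00033 (exact permutation p = 0.0635). The 2 Slc4a1 probe sets ordered the animals alike, with r = 0.90 over the 10 animals and 0.85 for the deviations from the diet means. Taking the brightest probe set for each gene, as is often done, would have chosen the flat one.

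**Figure D1:**
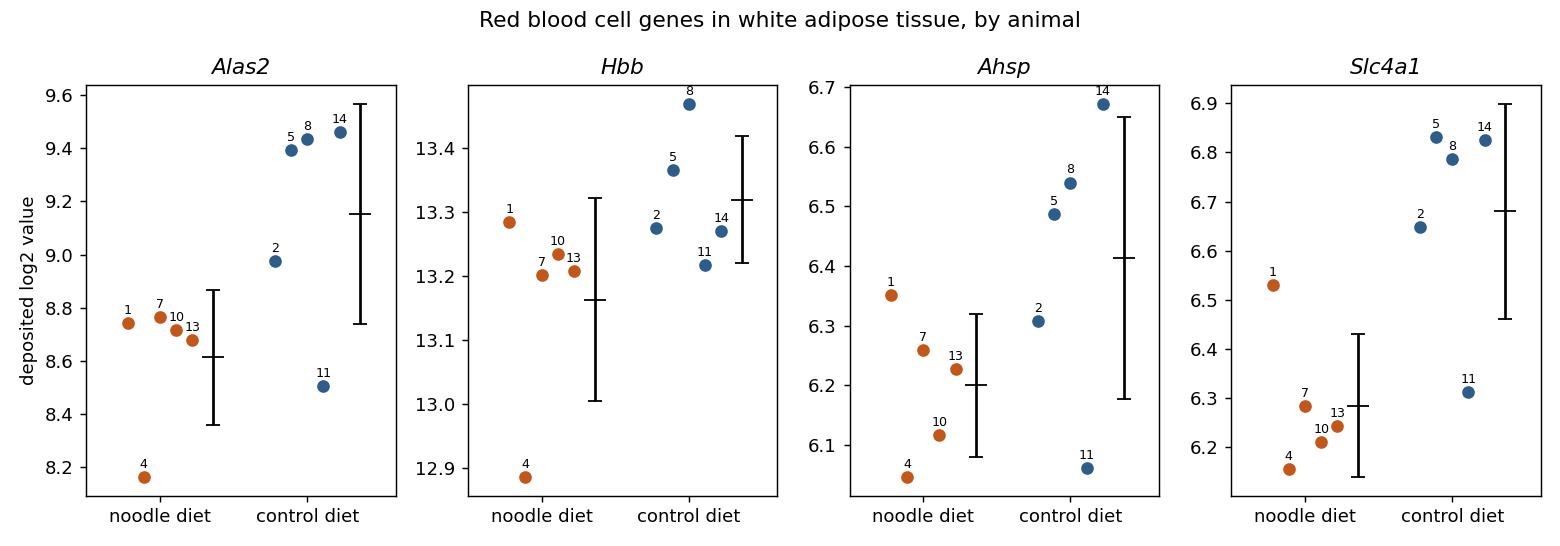
Deposited log2 values (y axis, a separate scale per panel) of the variable probe sets of Alas2, Hbb, Ahsp and Slc4a1 in noodle (left) and control (right) animals. Each point is 1 animal with its number, and the bars give the mean and SD of 5 animals. Noodle animal 4 is lowest in all 4 panels, and control animal 11 lies among the noodle animals.

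The 4 genes varied together from animal to animal. Noodle animal 4 had the lowest value of all 10 animals in each of the 4 variable probe sets. All 6 pairs of members correlated positively over the 10 animals, with Pearson's r from 0.68 to 0.93 and Spearman's rho from 0.71 to 0.95. Each pair passed after Benjamini-Hochberg adjustment over the 6 pairs, with adjusted permutation p from 0.00038 to 0.0227 for r and from 0.00096 to 0.0269 for rho. The members were chosen with earlier results of these data known. These p-values, and those of the pairs below, are therefore no independent test of co-variation. The closest pair was Alas2 and Ahsp at r = 0.93 and rho = 0.95. Alas2 and Slc4a1 followed at 0.92 and 0.85, and Ahsp and Slc4a1 at 0.91 and 0.88. Hbb was less tightly tied, at r = 0.83 and rho = 0.71 with Alas2, 0.73 and 0.81 with Slc4a1, and 0.68 and 0.77 with Ahsp. In control animal 14 Alas2 and Ahsp were at their highest, while Hbb, at 13.27, was close to the noodle animals 1 and 10.

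To set aside any difference between the diet means, r was computed again from the deviations from each diet's mean. It stayed between 0.55 and 0.92, and 4 of the 6 pairs passed an exact permutation within the diets after adjustment. The pairs of Hbb with Ahsp (r = 0.55, adjusted exact permutation p = 0.0726) and with Slc4a1 (r = 0.58, adjusted exact permutation p = 0.0658) did not. Without the 2 animals farthest from the median of the gene named before the other in each pair, r was 0.61 to 0.89, and 5 of the 6 pairs passed. Hbb and Ahsp, without noodle animal 4 and control animal 8, stood at r = 0.61 and no longer passed at n = 8 (adjusted exact permutation p = 0.110). With noodle animal 4 alone left out, Alas2 and Hbb stood at r = 0.76 (adjusted exact permutation p = 0.0146), Alas2 and Ahsp at 0.93, and Alas2 and Slc4a1 at 0.91.

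**Figure D2:**
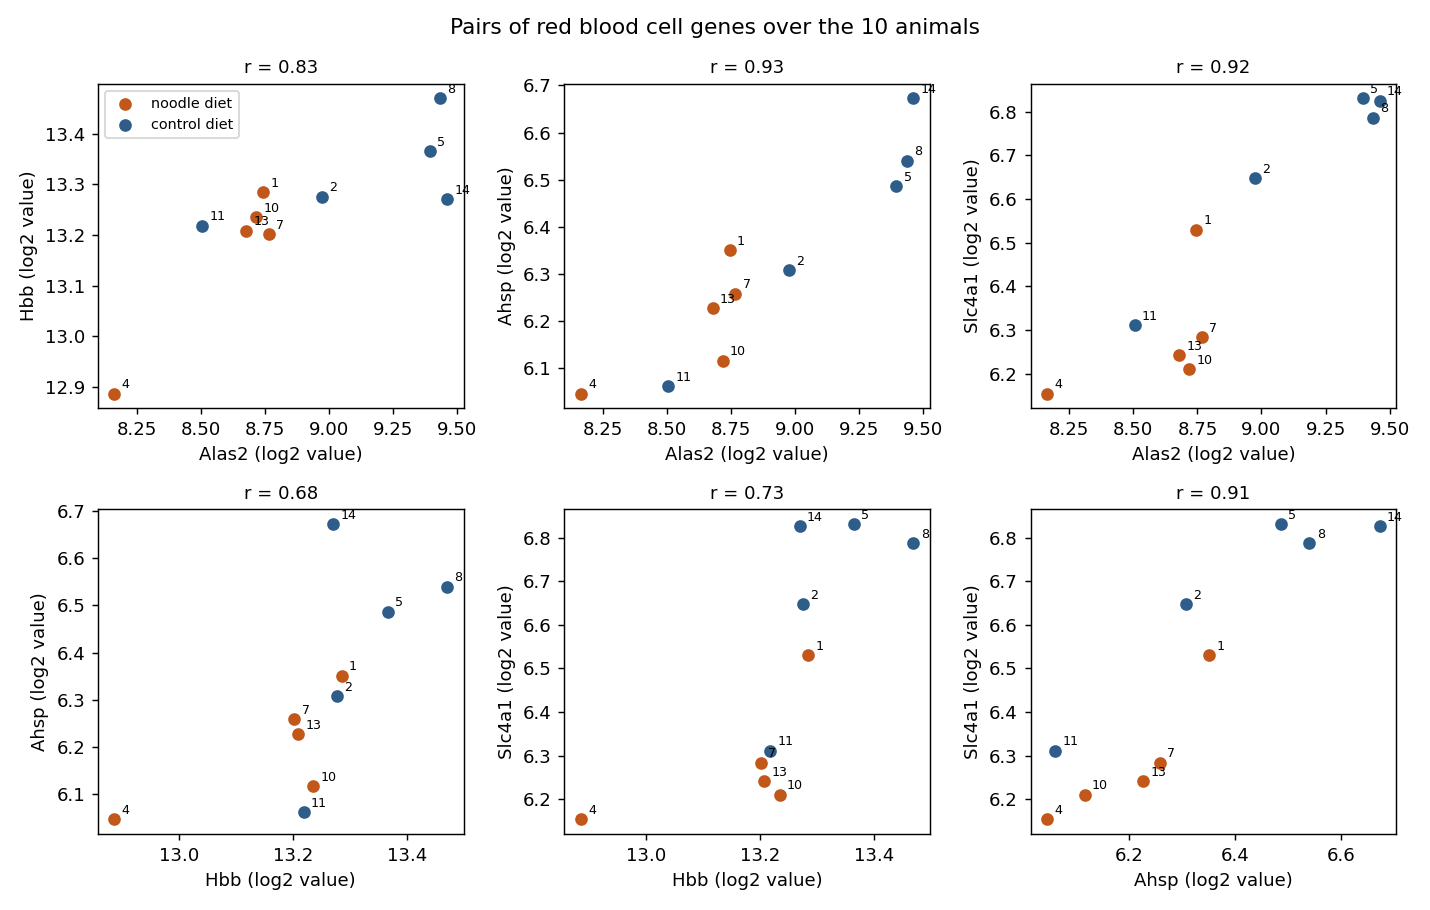
Each pair of member genes, with the log2 value of 1 gene on each axis and 1 numbered point per animal, noodle animals in orange and control animals in blue. Pearson's r over the 10 animals stands above each panel and runs from 0.68 (Hbb and Ahsp) to 0.93 (Alas2 and Ahsp).

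Probe sets of the wider globin family also had lower means in the noodle group where they were variable. Hba-a3, an alpha globin gene, differed by -0.59 ± 0.24 (SE, n = 5 per group; unadjusted limma p = 0.0368, exact permutation p = 0.0397). It read 10.03 to 11.04 in the noodle group and 10.72 to 11.65 in the control group. A further 6 probe sets carry 2 globin symbols each and so cannot be given to 1 gene. They were added after their values were seen. The 3 annotated to Hba-a2 and Hba-a1 together differed by -0.21 to -0.25. Those annotated to Hbbl1 and Hbb-bs together differed by -0.28 and -0.51, and the one for Hbq1b and Hbq1 by -0.016. All 6 were lower in the noodle group, with exact permutation p from 0.0238 to 0.0556, where 55.4% of all variable probe sets were lower. Several of the 6 are annotated to the same genes, so they are not 6 separate results. The globins used before birth, Hbe1, Hbe2, Hbg1 and Hbz, had flat probe sets, as 91.6% of all probe sets were.

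Outside the globins, Fech and all 7 variable genes of the chaperone and late red cell list, Ahsp among them, had lower means in the noodle group. In the haem and iron list, which holds Fech, 2 of 7 variable genes were lower. Of all genes with a variable probe set, 54.2% were lower. Fech, which puts the iron into haem, differed by -0.30 ± 0.12 (unadjusted p = 0.0368, exact permutation p = 0.0635). Bpgm, which makes the red cell's regulator of oxygen release, differed by -0.40 ± 0.15 (unadjusted p = 0.0233, exact permutation p = 0.0397), and Car2, a carbonic anhydrase, by -0.37 ± 0.17. The ubiquitin ligase genes Ube2o and Mkrn1 differed by -0.24 ± 0.10 and -0.23 ± 0.12, and Prdx2, a peroxidase abundant in red cells, by -0.12 ± 0.09. Bnip3l, which serves the clearing of mitochondria from reticulocytes and acts in many other cells, was the 1 gene among the 20 variable genes of the red cell lists whose groups did not overlap. All noodle animals lay below all control animals in 0.616% of the 1786 genes with a variable probe set, or 11 genes. Bnip3l read 10.15 to 10.26 in the noodle group and 10.32 to 10.69 in the control group, a difference of -0.21 ± 0.07 (unadjusted p = 0.0131, exact permutation p = 0.00794, the smallest possible). These values come from a dimmer probe set, since the brightest Bnip3l probe set was flat.

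The other 5 variable genes of haem and iron handling had differences above 0, none at an unadjusted p under 0.05. Alas1, the general form of the starting enzyme, differed by 0.04 ± 0.03, Alad by 0.12 ± 0.13, the transferrin receptor Tfrc by 0.26 ± 0.16, the iron importer Slc11a2 by 0.07 ± 0.08 and the haem-degrading Hmox1 by 0.16 ± 0.11. Among membrane genes, Aqp1, a water channel also made by capillary endothelium, differed by -0.23 ± 0.08, Bsg by -0.11 ± 0.10 and Gypc by 0.10 ± 0.10. The 12 measured erythroid transcription and receptor genes, among them Gata1, Klf1 and Epor, all had flat probe sets. Of all 14217 measured genes, only 1786 had a variable one.

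Over the 5 red cell lists together, members included, 64 of 91 listed genes were measured and 20 had a variable probe set. Of these 20, 14 were lower and 6 higher in the noodle group, and 54.2% of all genes with a variable probe set were lower. The median difference was -0.21 for the list and -0.0091 for all 1786 such genes. These medians pool probe sets whose sizes may not be comparable, and they are given as description only. At an unadjusted p under 0.05, 8 of the 20 were lower and 0 higher, where 5.21% of all such genes were lower at that p, and 0 of the 20 passed the adjusted threshold. Without the 4 members, 10 of 16 were lower, with a median of -0.17. The count of 14 was 14 or 15 under all 18 alternatives. The count of 8 was 3 without noodle animal 4, 5 without control animal 2, 3 without control animal 5 or 8, 2 without control animal 14 and 12 without control animal 11.

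**Figure D3:**
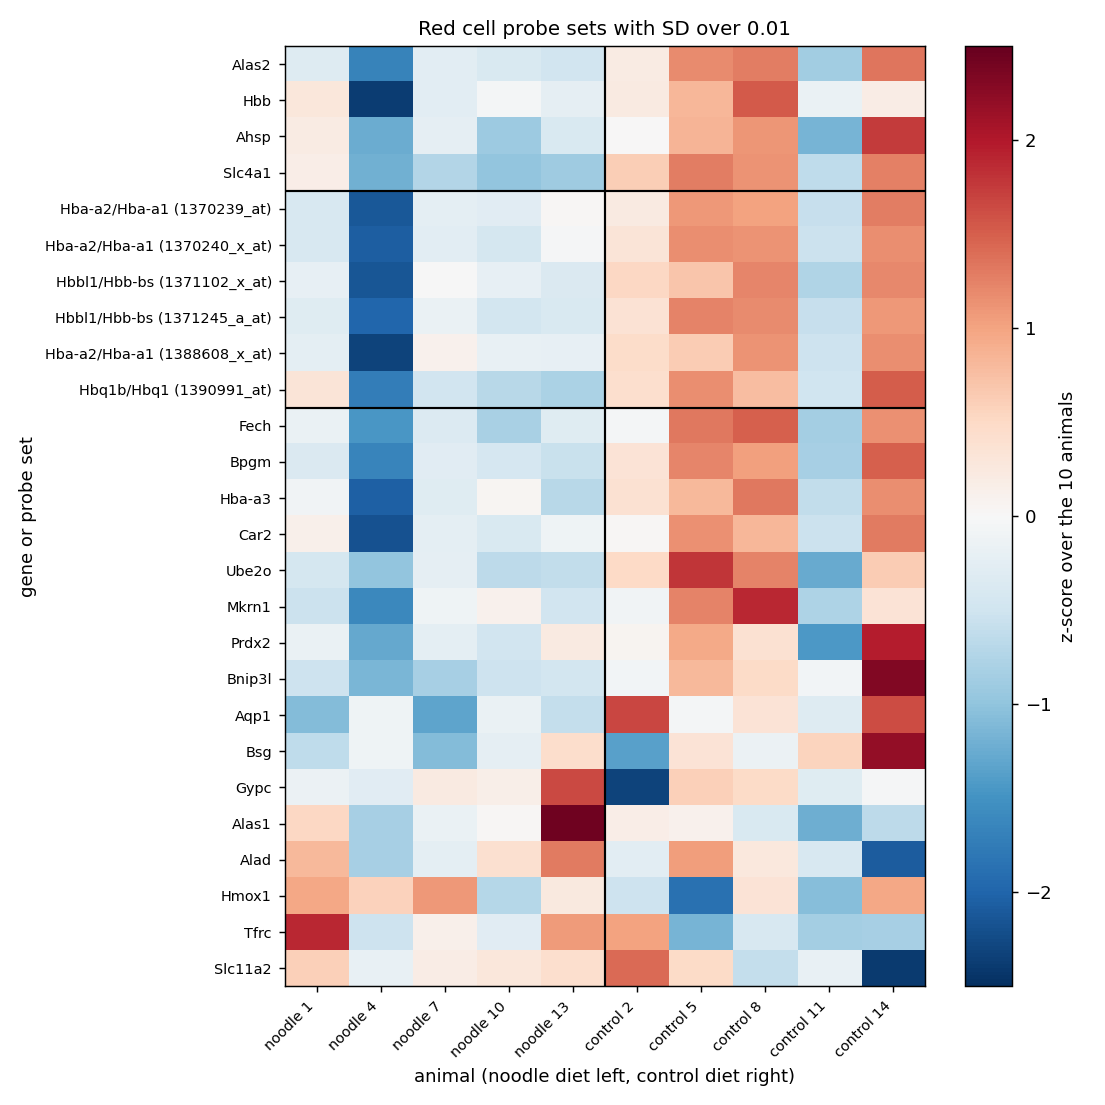
Values of each variable red cell probe set as z-scores over the 10 animals (colour, blue low and red high), with noodle animals left of the line and control animals right. The upper block holds the 4 members, the middle block the 6 probe sets with 2 globin symbols and the lower block the other list genes in order of their correlation with the members; noodle animal 4 is the darkest blue column from Alas2 to Car2, while the lowest rows, from Gypc to Slc11a2, show no such column.

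Likeness to the members was measured as Pearson's r over the 10 animals with the mean z-score of the 4 genes, for the 1629 other genes whose brightest probe set was variable. The median r was 0.037, and 90% of genes lay between -0.60 and 0.66. The 10 most alike were Fech (r = 0.98), Bpgm (0.97), Mmd (0.97), Ybx3 (0.96), Agmo (0.96), Tent5c (0.96), Cdc25b (0.96), Hba-a3 (0.96), Car2 (0.95) and Rbm38 (0.92). Of these, 4 were in the red cell lists. For the same 10 genes r was 0.90 to 0.96 from the deviations from the diet means. The 6 probe sets with 2 globin symbols, which were not ranked, had r from 0.92 to 0.98. Bnip3l, also not ranked because its brightest probe set was flat, had r = 0.80, and 0.61 from the deviations. Lower in the order stood Ube2o (0.89), Mkrn1 (0.88) and Prdx2 (0.84), while Aqp1 reached 0.46 and -0.0081 from the deviations. The other 7 ranked red cell list genes stood lower still, with Bsg at 0.28, Gypc at 0.03, Alas1 at 0.0039, Alad at -0.0079, Hmox1 at -0.09, Tfrc at -0.14 and Slc11a2 at -0.30. The 5 genes that ran most against the members were Hnrnpa3 (r = -0.87), the vascular adhesion gene Vcam1 (-0.86), Pfdn6 (-0.85), Nrep (-0.85) and Frmd6 (-0.84). These r values describe 10 shared arrays and carry no test.

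Markers of other blood cells are given beside all measured genes, of which 1786 of 14217 had a variable probe set. The counts below were not tested against that share. Of the lymphocyte markers, 0 of 15 measured genes were variable. Of 12 neutrophil markers the 1 variable gene was S100a9, which differed by 0.29 ± 0.27. It read 6.18 in noodle animal 4, the lowest of the noodle group, while control animals 5 and 11 were lower, at 6.01 and 5.86. Of 13 platelet markers 3 were variable, and all 3 were higher, Mmrn1 by 0.04, Pf4 by 0.08 and F13a1 by 0.26. The mean level of these 3 genes was 7.69 to 8.36 in the noodle group and 7.70 to 8.01 in the control group, with noodle animal 4 the highest. Whether platelets or other cells of the tissue gave this signal was not tested.

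Levels of markers of other cells of the tissue are given for the same animals. Of 15 variable macrophage genes 14 were higher, with mean levels of 8.33 to 8.79 in the noodle group and 8.24 to 8.74 in the control group. Of 10 variable endothelial genes 8 were lower, with mean levels of 8.36 to 8.68 in the noodle group and 8.41 to 8.65 in the control group. Noodle animal 4, lowest in all members, had the highest endothelial mean of the 10 animals, 8.68, and the highest macrophage mean, 8.79. It also had the second highest smooth muscle and pericyte mean, 8.23, and the second highest mast cell mean, 7.75. The 12 variable adipocyte markers had a mean level of 10.85 to 11.09 in the noodle group and 10.93 to 11.06 in the control group, lowest in noodle animal 4. The 5 variable mast cell and 8 variable mesothelial genes were lower in all cases, with ranges of 7.23 to 7.75 and 6.23 to 7.05 in the noodle group and 7.29 to 7.93 and 6.16 to 7.67 in the control group. The part of these cell types in the red cell result was not tested.

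Array measures were also compared between the groups, and their ranges overlapped. The 3-prime minus 5-prime signal of the array's Actb and Gapdh controls, a measure of RNA integrity, averaged 0.84 ± 0.07 in noodle animals and 0.95 ± 0.08 in control animals (SD, n = 5 each; exact permutation p = 0.0476). The hybridization controls averaged 9.93 ± 0.12 in noodle animals and 10.13 ± 0.20 in control animals (SD, n = 5 each; exact permutation p = 0.111). With the 3-prime to 5-prime difference as a covariate, the diet differences were -0.65 for Alas2, -0.17 for Hbb, -0.33 for Ahsp and -0.44 for Slc4a1. With the hybridization mean they were -0.45 for Alas2, -0.0927 for Hbb, -0.15 for Ahsp and -0.36 for Slc4a1. The unadjusted limma p of Alas2 was then 0.0530 and 0.127 under these covariates in turn, and 0.0914 with array weights, while that of Slc4a1 stayed under 0.05 in all 18 alternatives. Whether RNA integrity or hybridization caused the differences was not tested.

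**Figure D4:**
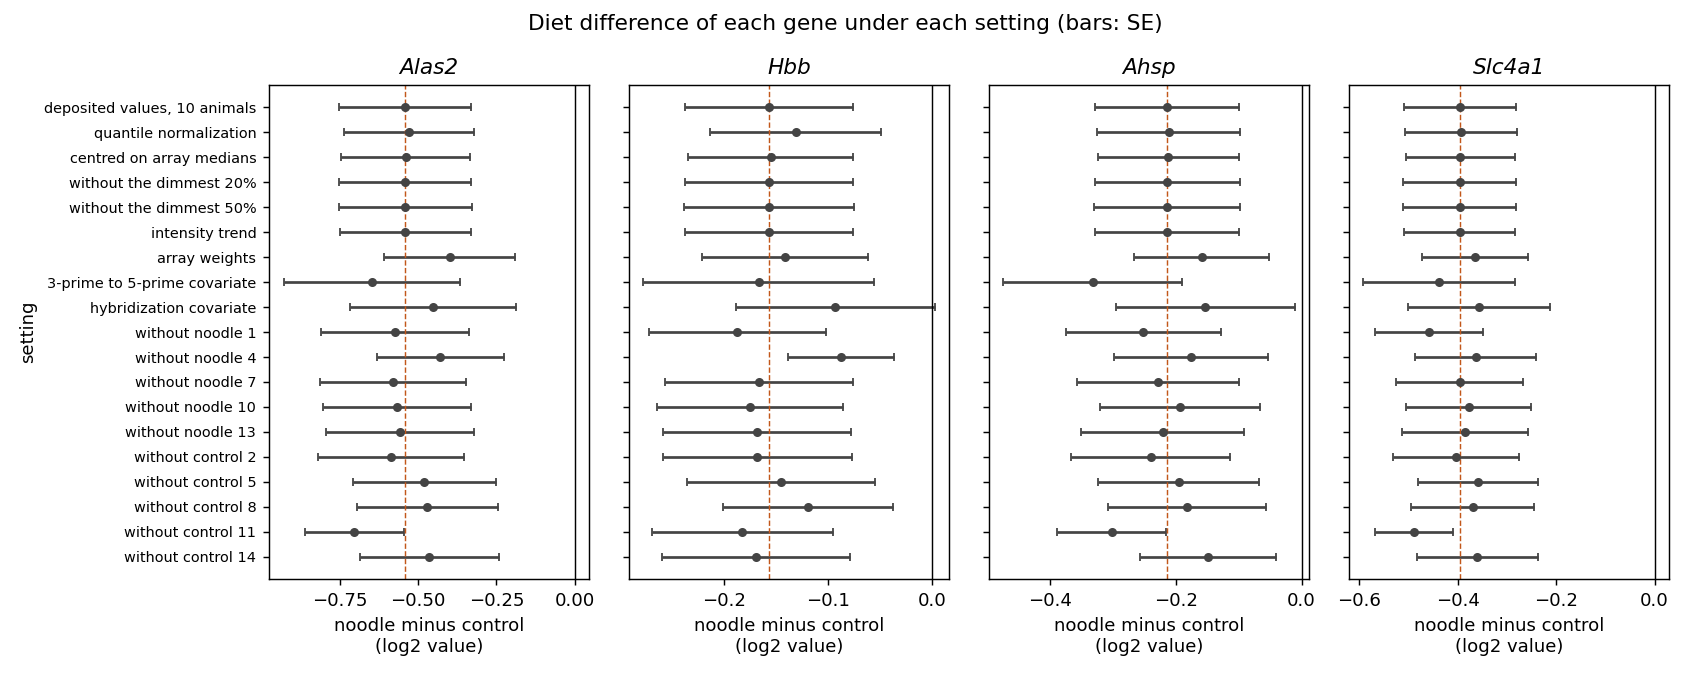
Noodle minus control difference (x axis, log2 value; the vertical line is 0 and the dashed line the difference on the deposited values) of each variable member probe set under each setting (y axis), with bars of 1 SE. All points lie below 0, and the Hbb point without noodle animal 4 stands at -0.0873.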

How the data were processed

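Total RNA of white adipose tissue from 10 rats was hybridised to rat expression arrays, 1 for each animal. Biotin-labelled cRNA was made from 100 ng, per the labels' protocols. Values were used as the authors deposited them and read as log2 from their range. How they were background-corrected, summarised and normalized, and the log base, is not given in the sources used here. There were 31099 probe sets, and 57 control probe sets were left out of the tests. Gene symbols came from the platform annotation, with 20826 probe sets having 1 symbol, 436 several and 9780 none, and 20758 of the first kind matched the current gene table.

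The comparison was noodle minus control in limma 3.58.1 under R 4.3.3 (lmFit and eBayes, two-sided), with Benjamini-Hochberg adjustment over the 31042 probe sets and a threshold of 0.05. It was tested on simulated data. Exact permutation tests used all assignments of animals to diets. Correlations used 100000 permutations, all 14400 permutations within the diets, or all orders where animals were left out. A gene with several variable probe sets was represented by the brightest of them, and in the likeness ranking and the measured lists by its brightest probe set. Of other genes, those named were the variable genes of the 5 red cell lists, the 10 most and 5 least alike, and examples from other lists. Members and lists were chosen with earlier results of these data known. With 5 arrays per group, their number limits the precision, and the labels do not say whether p-values also cover cages or days. Alternatives were quantile normalization, median centring, filters on dim probe sets, an intensity trend, array weights, 2 covariates and leaving out each animal. Promoter windows were those of RefSeq on GRCr8.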

Additional observations from a re-analysis of the deposited data

Results flagged for a closer look

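Among 52 groups of 5 animals, over the 4 variable member probe sets, the 16 other variable red cell genes and the 6 probe sets with 2 globin symbols, 10 had 1 animal far from the other 4. Chance gives about 2.6 (about 1 in 20), and the groups are not independent, since these genes vary together and the globin probe sets share targets. Noodle animal 4 accounted for 9 of the 10, always as the lowest value.

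The lowest Alas2 value was 8.16, in noodle animal 4, where the remaining noodle animals read 8.68 to 8.77. The same animal had an Hbb value of 12.89, against 13.20 to 13.28 in the rest. Its Bpgm value was 8.57, against 8.91 to 8.99, and its Car2 value 7.02, against 7.61 to 7.78. The probe sets for Hba-a2 and Hba-a1 stood at 13.25, 13.21 and 12.92, against 13.57 to 13.66, 13.53 to 13.61 and 13.31 to 13.37. Those for Hbbl1 and Hbb-bs stood at 11.79 and 9.31, against 12.22 to 12.30 and 9.89 to 10.01. Ahsp and Slc4a1 were also lowest in this animal, at 6.05 and 6.15, without a gap of that size. The remaining case was Gypc in noodle animal 13, at 9.33, against 9.02 to 9.10 in the other noodle animals.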

How the results depend on the processing

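The differences of Alas2, Hbb, Ahsp and the variable Slc4a1 probe set kept their sign under all 18 alternatives, and none passed an adjusted p of 0.05. Their lowest adjusted p was 0.368, with the arrays centred on their medians. Leaving out single animals gave -0.703 to -0.428 for Alas2, -0.187 to -0.0873 for Hbb, -0.302 to -0.149 for Ahsp and -0.489 to -0.359 for Slc4a1. The flat Slc4a1 probe set turned to 0.0025 under quantile normalization and 0.0013 under centring, which shifts every difference by the same amount. The number of probe sets past the threshold was 0 to 1 when single animals were left out, with the 1 found without control animal 14, and 0 under the other alternatives. At an unadjusted p under 0.05 there were 1481, 770 higher and 711 lower. Among correlations, Hbb with Ahsp no longer passed from the deviations from diet means (0.547), without the 2 farthest animals (0.612) and under quantile normalization (0.589), and ranged from 0.607 to 0.813 when single animals were left out, ending without noodle animal 4 or control animal 5 or 8. Hbb with Slc4a1 did not pass from the deviations (0.576). The other 4 pairs passed under every alternative run. The 8 red cell genes lower at an unadjusted p under 0.05 became 3 with array weights, 5 with the 3-prime to 5-prime covariate and 2 with the hybridization covariate. The counts of 14 and 8 were examined under alternatives chosen after seeing the data. No paired analysis was possible because the pair-fed partners are not named in the labels. The p-values of the diet comparison therefore do not take the pair-feeding into account.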

Other observations

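Flat probe sets, whose differences are too small to read as sizes, still carried an order of the animals. Of the 44 red cell genes measured only by flat probe sets, 14 (31.8%) had an r with the members' mean z-score above 0.57, the 95th percentile of all 12585 flat genes. They included Epb41, a protein of the red cell skeleton (r = 0.93), Hemgn, a nuclear protein of the erythroid lineage (0.91), the mitochondrial iron importer Slc25a37 (0.87), Slc25a39 (0.81), the carbonic anhydrase gene Car1 (0.75), Epb42 (0.75) and Klf1 (0.73), whose SDs lay between 0.00016 and 0.0016. Others of the 44 had a negative r, among them Gata1 (-0.020), Tal1 (-0.094), Epor (-0.38) and Cpox (-0.64). The median r was 0.17 for the 44 genes and -0.019 for all flat genes. This was looked at after the values were seen, and carries no test.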
